A study of Homo sapiens with 6 samples.

Results

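The genes described here encode the machinery that ties chromosomes to the mitotic spindle: the centromeric nucleosome, the inner and outer kinetochore, the spindle assembly checkpoint, the shugoshins and the chromosomal passenger complex. They were chosen by name, as 46 genes, with earlier results of these data known, so their counts below describe them and test nothing independent. All 46 had a value among the 18336 gene names of the deposited tables. SPC25 and SKA1 stood on more than 1 row each, and the highest value per library was taken for them. The values come from RNA sequencing of HUVECs, primary endothelial cells taken from the umbilical vein. There were 6 libraries, 3 made after transfection of 8OH-G miR-483, a form of the microRNA miR-483 that carries an oxidised guanine, and 3 made after transfection of miR-483 itself. Cells of both groups received the RNA with a lipid reagent, and total RNA was taken on day 2 (48 hours). A scramble control, named in the labels' protocol, was not analysed here, so each difference is one between the 2 microRNA forms and can come from either of them. The arm of miR-483 and the position of the oxidised guanine are not stated in the sources used here. Nor is it stated whether the libraries within a group were grown as separate cultures, so p-values measure the spread between these libraries, which may be technical.

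A kinetochore assembles on each centromere, where the histone H3 variant CENP-A replaces ordinary H3, and its outer layer grips the spindle microtubules. Kinetochores without microtubules hold back anaphase through the spindle assembly checkpoint, in which MAD2, BUBR1 and BUB3 inhibit the activator CDC20 of the anaphase promoting complex. Many of these genes are transcribed mainly late in the cell cycle and are at low levels in resting cells, and endothelium in an undisturbed vessel is largely resting, whereas cultured HUVECs divide.

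Levels are given as FPKM, fragment counts divided by gene length and by library size, a unit inferred from the size of the values. Library totals ran from 1598260 to 1687283 FPKM with 8OH-G miR-483 and from 1396537 to 1440422 FPKM with miR-483, of which 71.3% to 76.6% lay on mitochondrial genes. The read depth is unknown, and no counting error can be set beside the levels. In miR-483 replicate 1, 2663 rows were at 0, against 287 to 625 in the other libraries. Its total outside mitochondrial genes was also the lowest, at 343183 FPKM against 391809 to 418883 FPKM. The cause was not tested. Without that library, 45 of the 46 genes were called higher, with a median log2 fold change of 1.61, beside 4025 of all 12729 genes tested. The endothelial identity of the cells showed in VE-cadherin (CDH5), at 244 to 284 FPKM with 8OH-G miR-483 and 373 to 390.4 FPKM with miR-483. Of 8 endothelial markers 6 fell, beside 20.5% of all genes tested, and 2 (KDR and ERG) did not pass the test. The ratios of means of those 6, 8OH-G miR-483 over miR-483, ran from 0.279 (TEK) to 0.718 (TIE1), with CDH5 at 0.702. Of 19 markers of leukocytes, mural cells, fibroblasts, epithelium and erythroid cells, 4 had a row among the deposited values and the others had none. ACTA2 was at 1.70 to 1.91 and 1.80 to 1.88 FPKM, LUM at 0.392 to 0.534 and 0.00 to 0.125 FPKM, COL3A1 at 1.19 to 1.35 and 2.25 to 2.37 FPKM, and the lysozyme gene LYZ at 0.00 to 0.179 FPKM with 8OH-G miR-483 and 3.66 to 4.32 FPKM with miR-483. Summed over the 4, levels were 3.49 to 3.80 FPKM and 8.01 to 8.46 FPKM. Their part in the results below was not tested. In RNA from whole cultures, more dividing cells and more RNA of these genes per cell cannot be told apart.

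Of the 46 genes, 45 were higher with 8OH-G miR-483 at an adjusted p of 0.05 and 0 were lower. The call was made with limma on log2(FPKM + 1), fitted and adjusted over the 12729 genes that reached 1 FPKM in 3 or more libraries, of which 34.9% were called higher and 20.5% lower (55.3% in either direction). In the same 45 genes all 3 libraries of 8OH-G miR-483 lay above all 3 of miR-483, as they did in 39.5% of the genes tested. With no filter on low values, 45 of the 46 were again higher, against 26.5% of 18327 genes. All 46 passed that filter, 5 of them with at least 1 miR-483 library under 1 FPKM and none with every miR-483 library under it. Those 5 (OIP5, CENPI, CENPP, SKA1 and SGOL1) met the filter only with their 8OH-G miR-483 libraries counted. Their calls thus lean on the group in which they were higher, and their p-values are no support. The median log2 fold change of the 46 was 1.62, with an interquartile range of 1.22 to 1.89, against a median of 0.09 and a range of -0.18 to 0.38 over all genes tested. The fold change was over 1 in 37 of the 46, which compares with 5.33% of all genes tested that were called higher with such a change. Among the 500 largest log2 fold changes of the 12729 genes tested, all above 1.15 or equal to it, 35 belonged to these genes. That is 76.1% of the 46, against 3.93% of all genes tested.

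**Figure D1:**
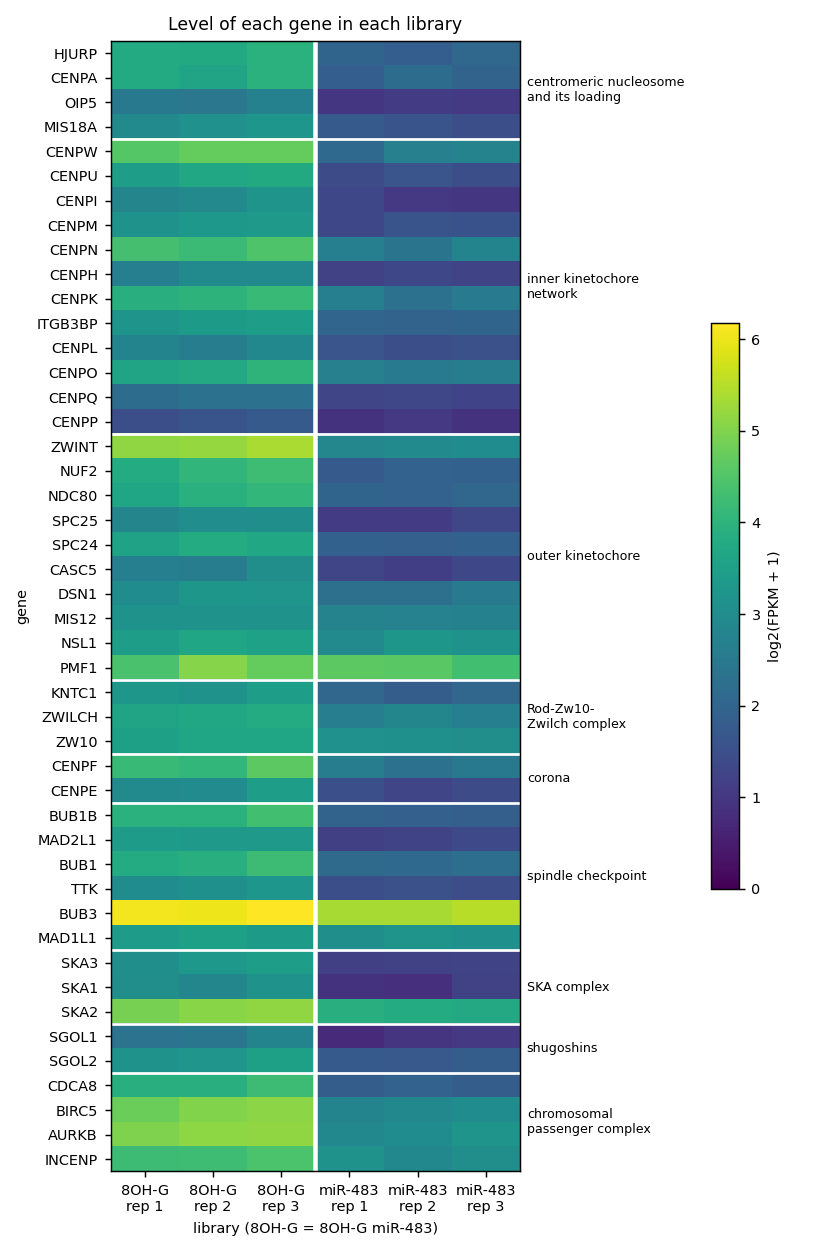
Levels of the 46 genes as log2(FPKM + 1) (colour scale) in each library (columns, 3 of 8OH-G miR-483 on the left and 3 of miR-483 on the right), in rows grouped by role and sorted by fold change within a role. Most rows are brighter on the left, while PMF1 and MAD1L1 differ little between the sides and BUB3 is the brightest row on both.

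Summed over the 46 genes, the libraries held 597, 641 and 711 FPKM with 8OH-G miR-483, against 220.4, 221 and 226 FPKM with miR-483. The 3 sums with 8OH-G miR-483 lay apart from those with miR-483 and were also less alike. With 8OH-G miR-483, replicate 3 held the highest value of its group for 36 of the 46 genes (78.3%), against 35.7% of all genes tested, and the members lay a median of 0.13 log2 above their group means there. Of the 8 endothelial markers, 5 were lowest of the group in that library: PECAM1 (101 FPKM, against 135 and 130.4 in the others), CDH5, VWF, KDR and TIE1. TEK was lowest in replicate 2 and EMCN in replicate 1, each within 1 FPKM of replicate 3, and ERG was highest in replicate 3. Without replicate 3, 45 of the 46 genes were again called higher, beside 4133 of all 12729 genes tested. The median log2 fold change of the 46 was then 1.55.

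As deposited, the median gene was 0.09 log2 higher with 8OH-G miR-483. Scaling the libraries by their median ratios moved that median by -0.10, and quantile normalization moved it by -0.10. Called higher were then 44 of the 46 under either scaling, against 27.2% and 27.0% of all genes tested. Over all genes the split of 4437 higher and 2608 lower was 3463 and 3470 with the median ratios applied, and 3440 and 3559 with quantile normalization. The call that was lost was that of MAD1L1.

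The 46 genes spread over a wide range of levels. Group means ran from 2.06 FPKM (CENPP) to 67.1 FPKM (BUB3) with 8OH-G miR-483, and from 0.871 FPKM (SGOL1) to 41.6 FPKM (BUB3) with miR-483. With 8OH-G miR-483, 24 of the genes averaged 10 FPKM or more, and 3 did so with miR-483: BUB3, PMF1 and SKA2. Means under 5 FPKM were found for 4 genes with 8OH-G miR-483 and for 32 with miR-483. These low levels weigh on the fold changes, since the log2(FPKM + 1) scale understates the change of a gene near 1 FPKM.

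**Figure D2:**
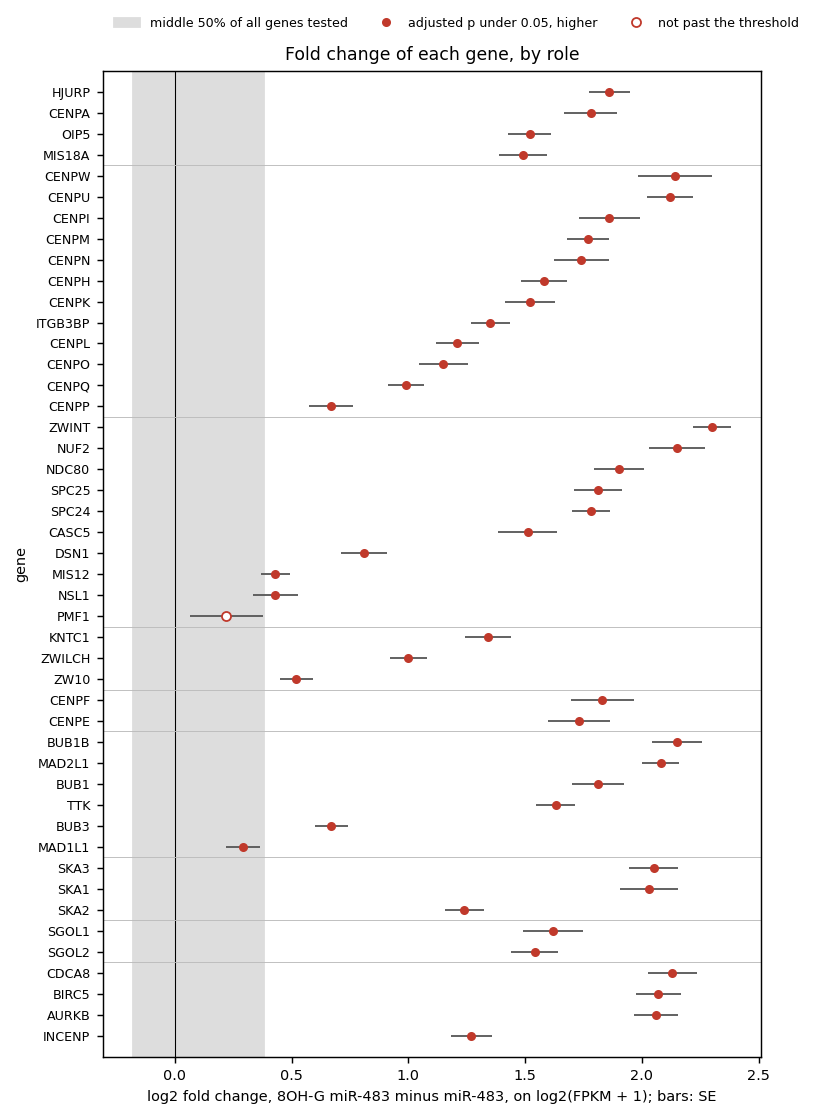
Log2 fold change of each of the 46 genes, computed on log2(FPKM + 1) as 8OH-G miR-483 minus miR-483, with its SE from limma, grouped by role and sorted within a role. The grey band is the interquartile range of all genes tested, from -0.18 to 0.38, and PMF1 (open point) and MAD1L1 are the members whose points fall inside it.

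The genes of the centromeric nucleosome and its loading rose in 4 of 4 cases. Beside this count and each count by role below stand the 34.9% of all genes tested that were called higher. CENPA itself had levels of 12.7, 11.2 and 14.3 FPKM with 8OH-G miR-483, against 2.58, 3.53 and 2.93 FPKM with miR-483. HJURP, the chaperone that deposits CENP-A, was at 12.6, 12.5 and 14.5 FPKM with 8OH-G miR-483 and at 2.95, 2.61 and 3.23 FPKM with miR-483. In both genes every 8OH-G miR-483 library lay above every miR-483 library, and the means differed 4.23-fold for CENPA and 4.51-fold for HJURP. MIS18A, of the complex that licenses centromeres for new CENP-A, had the smallest log2 fold change of the group, with 6.64, 7.72 and 8.45 FPKM against 2.34, 2.06 and 1.78 FPKM with miR-483 (log2 fold change 1.49, SE 0.104, adjusted p = 9.26e-06). Its partner OIP5 averaged 4.89 ± 0.561 FPKM with 8OH-G miR-483 and 1.05 ± 0.0965 FPKM with miR-483 (SD, n = 3 libraries per group here and below). OIP5 met the filter only with its 8OH-G miR-483 libraries counted, so its p is no support.

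The inner kinetochore network, a set of proteins bound to CENP-A chromatin throughout the cell cycle, rose in 12 of 12 genes, with log2 fold changes from 0.67 to 2.14. At the top stood CENPW, a histone-fold protein that pairs with CENP-T, at 22.4, 25.2 and 25.2 FPKM with 8OH-G miR-483, against 3.33, 5.48 and 5.74 FPKM with miR-483. CENPU, a docking protein for the kinase PLK1, averaged 11.5 ± 1.33 FPKM with 8OH-G miR-483 and 1.86 ± 0.193 FPKM with miR-483, a 6.17-fold difference. Its complex partner CENPQ differed 2.68-fold, at 3.82 ± 0.251 FPKM and 1.43 ± 0.0553 FPKM. CENPP, also of that complex, had the smallest log2 fold change of the network (0.67, SE 0.0943, adjusted p = 0.000403), with 1.80, 2.03 and 2.37 FPKM against 0.871, 1.02 and 0.863 FPKM with miR-483. Its values did not overlap between the groups, and its ratio of means was 2.25. CENPP, like CENPI below, met the filter of 1 FPKM only with its 8OH-G miR-483 libraries counted, so the p-values of both are no support.

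The remaining members of the network lay between these. CENPN, which reads the CENP-A nucleosome, averaged 19.4 ± 1.94 FPKM with 8OH-G miR-483 and 5.13 ± 0.882 FPKM with miR-483, and its binding partner CENPL averaged 5.77 ± 0.637 and 1.92 ± 0.160 FPKM. The means of CENPH, CENPI, CENPK and CENPM, which form 1 subcomplex, differed 4.44-fold, 5.84-fold, 3.25-fold and 4.69-fold. CENPO, a partner of CENPP, differed 2.47-fold, and ITGB3BP (CENP-R) 3.09-fold. CENPO and CENPP, like CENPL and CENPU, overlap other coding genes in the RefSeq annotation, among 11 of the 46 genes that do. Whether reads were assigned by strand is not stated in the sources used here, which leaves levels in such overlaps uncertain.

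The outer kinetochore split by complex. All 4 genes of the NDC80 complex, which binds the microtubule, rose with log2 fold changes from 1.78 (SPC24) to 2.15 (NUF2). NDC80 had 11.6, 14.2 and 16.0 FPKM with 8OH-G miR-483, against 2.98, 2.87 and 3.08 FPKM with miR-483, and NUF2 had 12.8, 15.6 and 18.0 FPKM against 2.38, 2.87 and 2.79 FPKM. The means of SPC24 and SPC25 differed 4.32-fold and 5.55-fold. The largest log2 fold change of the 46 genes was that of ZWINT, which links the outer kinetochore to the checkpoint, at 34.5, 35.5 and 40.6 FPKM with 8OH-G miR-483, against 6.27, 6.74 and 7.02 FPKM with miR-483 (log2 fold change 2.30, SE 0.0811, adjusted p = 6.04e-07). CASC5 (KNL1), the scaffold on which the BUB proteins gather, averaged 5.87 ± 1.18 FPKM with 8OH-G miR-483 and 1.39 ± 0.176 FPKM with miR-483.

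The 4 genes of the MIS12 complex, the bridge from the inner kinetochore to NDC80, had the smaller changes of that layer. PMF1 did not pass the test, with 20.3, 32.0 and 25.4 FPKM with 8OH-G miR-483, against 23.4, 23.3 and 18.8 FPKM with miR-483 (log2 fold change 0.22, SE 0.156, adjusted p = 0.26). Its values overlapped between the groups, and it was the sole member that did so. Without 8OH-G miR-483 replicate 1 its log2 fold change was 0.38 with an adjusted p = 0.0498, and over the other alternatives its adjusted p ran from 0.213 to 1. PMF1 overlaps the readthrough gene PMF1-BGLAP, listed at means of 5.24 FPKM with 8OH-G miR-483 and 4.76 FPKM with miR-483, so reads could be split between them. MIS12 had 7.99, 8.03 and 7.97 FPKM with 8OH-G miR-483, against 5.82, 5.67 and 5.52 FPKM with miR-483, a difference of 1.41-fold with little spread. NSL1 had 10.1, 11.5 and 10.6 FPKM against 6.63, 8.62 and 7.85 FPKM, a 1.39-fold difference (adjusted p = 0.00491). DSN1, at 8.02 ± 0.832 and 4.15 ± 0.481 FPKM, had the largest fold of the complex, 1.93.

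In the Rod-Zw10-Zwilch complex, which brings dynein to the kinetochore, 3 of 3 genes rose. KNTC1, the Rod subunit, had 8.67, 8.03 and 9.90 FPKM with 8OH-G miR-483, against 3.10, 2.52 and 3.09 FPKM with miR-483. ZW10, which also acts in traffic between the endoplasmic reticulum and the Golgi, had 10.4, 11.6 and 11.6 FPKM with 8OH-G miR-483, against 7.69, 7.60 and 7.26 FPKM with miR-483. The groups stood apart in both genes, by 3.05-fold for KNTC1 and 1.49-fold for ZW10, with ZWILCH between them at 2.18-fold. Of the proteins of the fibrous corona, the kinesin CENPE had 6.80, 6.94 and 9.81 FPKM with 8OH-G miR-483, against 1.85, 1.43 and 1.65 FPKM with miR-483. CENPF had 17.2, 16.1 and 23.5 FPKM against 5.01, 4.03 and 4.63 FPKM. In both, 8OH-G miR-483 replicate 3 was the high library of its group, and the lowest value with 8OH-G miR-483 was over 3 times the highest with miR-483.

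Among the spindle checkpoint genes, 6 of 6 rose, and they fell into a pair with small changes and a set with large ones. BUB1B (BUBR1) had 14.3, 14.4 and 18.7 FPKM with 8OH-G miR-483, against 2.91, 2.69 and 2.65 FPKM with miR-483 (log2 fold change 2.15, SE 0.105, adjusted p = 1.88e-06). MAD2L1 (MAD2) averaged 9.20 ± 0.232 FPKM with 8OH-G miR-483 and 1.41 ± 0.167 FPKM with miR-483, a 6.53-fold difference. The kinases BUB1 and TTK (MPS1) differed 4.26-fold and 4.25-fold in mean FPKM. MAD1L1 (MAD1), which holds MAD2 at unattached kinetochores and sits at nuclear pores between divisions, had 9.39, 10.3 and 9.26 FPKM with 8OH-G miR-483, against 7.48, 8.20 and 7.51 FPKM with miR-483. Its difference of 1.25-fold passed as deposited (log2 fold change 0.29, SE 0.0726, adjusted p = 0.00916) and not after median-ratio scaling (adjusted p = 0.0522) or quantile normalization (0.147). BUB3, the most abundant of the 46 genes in either group, averaged 67.1 ± 3.78 FPKM with 8OH-G miR-483 and 41.6 ± 2.28 FPKM with miR-483, a 1.61-fold difference (adjusted p = 8.22e-05).

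The SKA complex, which keeps kinetochores on shrinking microtubules, rose in 3 of 3 genes. SKA3 had 7.40, 8.73 and 9.95 FPKM with 8OH-G miR-483, against 1.26, 1.28 and 1.42 FPKM with miR-483. SKA2 was the most abundant of the complex and had the smallest fold, with 29.1, 32.6 and 34.7 FPKM against 14.0, 13.0 and 12.2 FPKM (2.46-fold). SKA1 averaged 7.09 ± 0.919 FPKM with 8OH-G miR-483 and 0.988 ± 0.290 FPKM with miR-483, the largest ratio of means among the 46 genes (7.18), though its miR-483 level lay near the limit of 1 FPKM set for testing. The shugoshins, which guard centromeric cohesin, both rose. SKA1 and SGOL1 met the filter of 1 FPKM only with their 8OH-G miR-483 libraries counted, so their p-values are no support. SGOL1 had 4.11, 4.35 and 5.94 FPKM with 8OH-G miR-483, against 0.706, 0.893 and 1.02 FPKM with miR-483, and SGOL2 had 7.99, 8.30 and 10.4 FPKM against 2.34, 2.30 and 2.56 FPKM.

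The chromosomal passenger complex, which frees wrongly attached kinetochores through the kinase Aurora B, rose in 4 of 4 genes. CDCA8 (borealin) had 13.6, 13.8 and 17.8 FPKM with 8OH-G miR-483, against 2.54, 2.87 and 2.55 FPKM with miR-483. AURKB, the kinase, averaged 33.0 ± 2.29 FPKM with 8OH-G miR-483 and 7.17 ± 0.883 FPKM with miR-483, and BIRC5 (survivin) averaged 30.3 ± 3.35 and 6.44 ± 0.528 FPKM. These 3 genes had log2 fold changes of 2.13, 2.06 and 2.07. INCENP, the scaffold of the complex, changed less, with 17.7, 18.0 and 20.4 FPKM against 7.83, 6.43 and 7.23 FPKM (log2 fold change 1.27, SE 0.0881, adjusted p = 8.84e-06).

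Because FPKM is scaled by length, partners of 1 complex can be set against each other within a library. Such ratios were compared for 20 pairs as log2((a + 1)/(b + 1)) with an exact two-sided permutation test over the 6 libraries. With 3 libraries against 3 no p below 0.1 can be reached, and 13 pairs reached it (adjusted p = 0.154 over the 20), so no pair passes a threshold of 0.05. MAD2L1 stood at 1.01, 0.869 and 0.988 times the level of MAD1L1 with 8OH-G miR-483, against 0.167, 0.171 and 0.210 times with miR-483. BUB1B stood at 0.216, 0.226 and 0.262 times the level of BUB3 with 8OH-G miR-483, against 0.0720, 0.0668 and 0.0600 times with miR-483. The differences in log2 ratio were 1.79 for MAD2L1 to MAD1L1 and 1.48 for BUB1B to BUB3, and 1.13 for both BUB1 to BUB3 and CENPU to CENPQ. AURKB was at 1.72, 1.90 and 1.70 times INCENP with 8OH-G miR-483, against 0.817, 1.08 and 1.12 times with miR-483.

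Other partners kept closer ratios. HJURP was at 0.995, 1.11 and 1.01 times CENPA with 8OH-G miR-483, against 1.14, 0.739 and 1.10 times with miR-483 (difference in log2 ratio 0.08, exact permutation p = 0.8). CDCA8 was at 0.510, 0.445 and 0.533 times BIRC5, against 0.427, 0.451 and 0.365 times (0.05, exact permutation p = 0.5). The ratio of NDC80 to NUF2 was 0.910, 0.911 and 0.892 with 8OH-G miR-483 and 1.25, 0.998 and 1.10 with miR-483, the 1 pair among the 20 whose log2 ratio was lower with 8OH-G miR-483 (-0.25). The pseudocount weighs on pairs of unequal level: CENPO to CENPP differed by 0.47 with a pseudocount of 1 and by 0.19 with 0.1, and its plain ratios overlapped between the groups. The reverse held for SPC25 to SPC24, with plain ratios of 0.566, 0.549 and 0.615 against 0.398, 0.409 and 0.538 with miR-483, and for SGOL1 to SGOL2, with 0.515, 0.524 and 0.569 against 0.302, 0.389 and 0.396. The plain ratios of both pairs did not overlap, while with a pseudocount of 1 they did, at differences of 0.04 and 0.09.

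**Figure D3:**
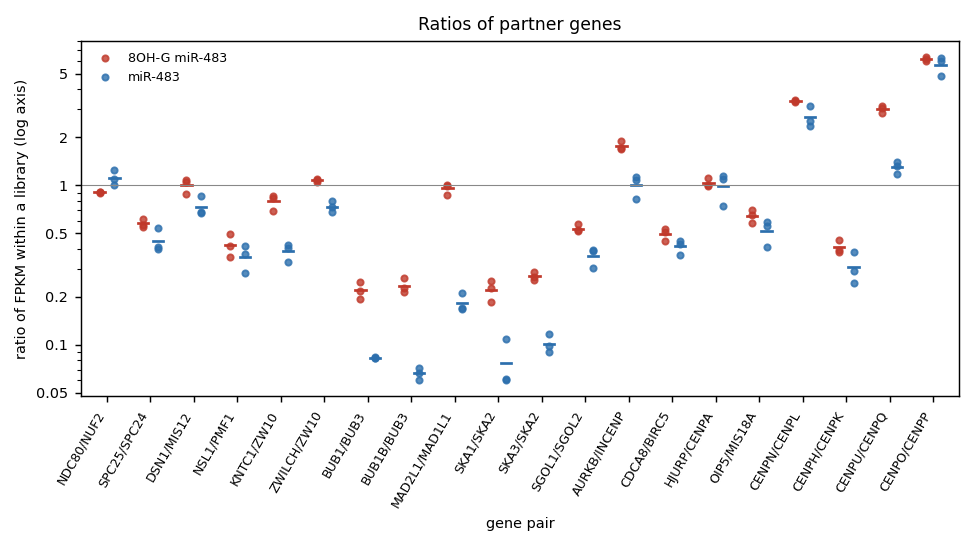
Ratio of FPKM of 2 partner genes within each library (log axis) for 20 pairs, with 8OH-G miR-483 left of miR-483, points for libraries and a line for each mean. MAD2L1 to MAD1L1 and BUB1B to BUB3 lie apart between the groups, while HJURP to CENPA and CDCA8 to BIRC5 overlap.

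Other genes of the same pathways were set beside these. Of 37 further kinetochore and centromere genes, 23 rose and 4 fell (34.9% and 20.5% of all genes tested did), with a median log2 fold change of 0.57. Of the 23, the histone kinase gene GSG2 (haspin) reached 1 FPKM in the 8OH-G miR-483 libraries alone and could enter the test only by differing. The 4 with the smallest p were TRIP13, an ATPase that remodels MAD2, at 15.4 ± 2.10 FPKM with 8OH-G miR-483 and 2.60 ± 0.130 FPKM with miR-483, the mitotic kinase gene PLK1 (36.2, 37.3 and 44.3 FPKM with 8OH-G miR-483, against 6.33, 6.59 and 8.08 FPKM), the microtubule depolymerase gene KIF2C (13.0 ± 1.19 and 3.22 ± 0.143 FPKM) and SPDL1 (spindly, a dynein adaptor, 28.2 ± 3.71 and 6.07 ± 0.225 FPKM). The 4 lower genes were the dynein regulators NDE1 and NDEL1 (log2 fold changes -0.56 and -0.40), the dynein light chain gene DYNLT3 (-0.31) and the phosphatase subunit gene PPP2R5A (-0.24). Of these, DYNLT3 did not pass without 8OH-G miR-483 replicate 1 (adjusted p = 0.0604), and PPP2R5A did not pass without 8OH-G miR-483 replicate 2 or 3 or any miR-483 replicate (0.0612 to 0.111).

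Among the genes of this list that did not pass the test were CENPB, CENPC and CENPT, named here after their values were seen. CENPB, which binds the alpha satellite repeats, had 35.1, 34.7 and 33.1 FPKM with 8OH-G miR-483, against 30.2, 33.1 and 33.4 FPKM with miR-483 (adjusted p = 0.294). CENPC, which binds the CENP-A nucleosome and recruits MIS12, had 4.42, 4.44 and 4.29 FPKM against 3.86, 4.28 and 4.73 FPKM (0.786). CENPT, a second bridge to NDC80, had 25.8, 26.0 and 24.3 FPKM against 20.4, 20.1 and 25.9 FPKM (0.126), and passed without miR-483 replicate 3 (log2 fold change 0.31, adjusted p = 0.0141). APITD1 (CENP-S) and STRA13 (CENP-X), histone-fold partners of CENPT and CENPW in the same list, did pass, at 9.04 ± 1.11 and 26.6 ± 1.90 FPKM with 8OH-G miR-483, against 5.73 ± 0.288 and 16.9 ± 1.36 FPKM with miR-483 (log2 fold changes 0.57 and 0.62, adjusted p = 0.000864 and 0.000279).

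Of 21 genes of the anaphase promoting complex and its partners, 13 rose and 0 fell in the values as deposited, beside 34.9% and 20.5% of all genes tested. After either scaling the counts were 12 and 2, beside 27.2% and 27.0% of all genes that were then higher. Lower were then 3470 (median ratios) and 3559 (quantile normalization) of all 12729 genes tested. The 4 with the smallest p were not core subunits: CDC20 (63.3 ± 7.43 FPKM with 8OH-G miR-483 and 9.50 ± 1.01 FPKM with miR-483), the ubiquitin-conjugating enzymes UBE2C (48.7 ± 3.02 and 8.96 ± 0.132 FPKM) and UBE2S (51.6 ± 2.89 and 17.2 ± 1.46 FPKM), and separase (ESPL1, 6.48 ± 0.689 and 1.24 ± 0.0193 FPKM). Of 14 cohesin genes, 8 rose and 1, the loader gene MAU2, fell (-0.27), beside the same 34.9% and 20.5% of all genes, with a list median of 0.29. After either scaling 6 rose, beside 27.2% and 27.0% of all genes. The cohesin regulators CDCA5 (sororin, 12.7 ± 0.646 and 2.64 ± 0.368 FPKM) and ESCO2 (3.73 ± 0.501 and 0.476 ± 0.0342 FPKM) had the smallest p, followed by the ring subunits SMC3 and SMC1A at 1.65-fold and 1.80-fold. ESCO2 reached 1 FPKM in the 8OH-G miR-483 libraries alone, so it could enter the test only by differing, and its p is no support.

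**Figure D4:**
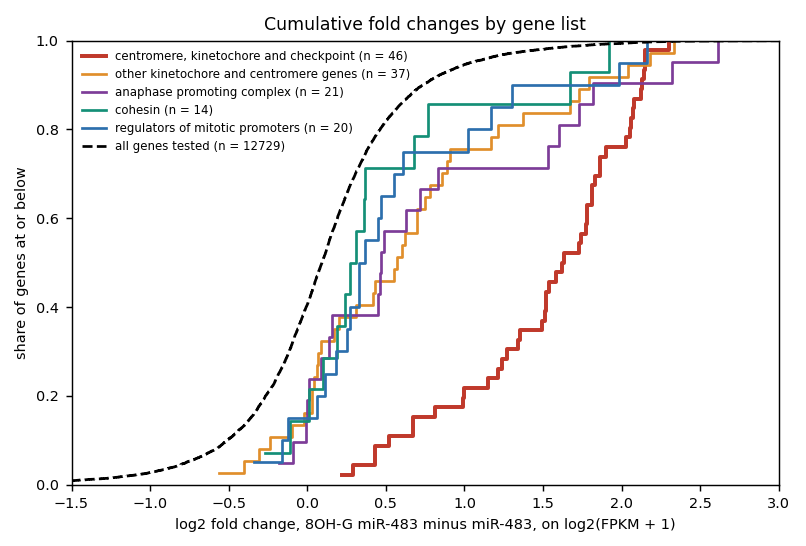
Cumulative share of genes (vertical axis) against log2 fold change (horizontal axis, computed on log2(FPKM + 1) as 8OH-G miR-483 minus miR-483) for the 46 genes, 4 related lists and all 12729 genes tested (dashed; the most extreme changes lie outside the axis). The curve of the 46 genes has a median of 1.62, against list medians from 0.29 to 0.57. At the upper end the order changes. The 46 genes reach 2.3, the other kinetochore and centromere genes 2.33 and the anaphase promoting complex 2.61.

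Promoters of late cell-cycle genes often hold a cell cycle gene homology region (CHR) beside the transcription start, bound in resting cells by the repressor complex DREAM and in dividing cells by MuvB with B-MYB and FOXM1, together with CCAAT boxes bound by NF-Y. The RefSeq table (GRCh38.p14, 250 bases before to 50 after a start) held a window for 37 of the 46 genes. The CHR forms TTTGAA or TTCGAA were found on either strand in 20 of the 37 (54.1%), against 15.4% of 8839 genes tested that had a window and 19.5% of all 27305 gene promoters. CCAAT, on either strand, was found in 25 (67.6%), against 43.7% and 39.7%. The E2F forms GCGGGAA or GCGCGAA were found on either strand in 11 (29.7%), against 17.3% and 10.2%. Within 50 bases on each side of the start, a span chosen after the windows were seen, a CHR form stood in 18 of the 37 (48.6%), against 5.01% and 6.24%. Over the whole window, a CHR form stood in 19 of the 29 genes with a log2 fold change of 1 or more and in 1 of the 8 with a smaller one. For CCAAT the counts were 20 of 29 and 5 of 8, and for the E2F forms 8 of 29 and 3 of 8. The median log2 fold change with and without a match was 1.85 and 1.24 for CHR, 1.74 and 1.80 for CCAAT, and 1.78 and 1.68 for E2F. In the span chosen after the windows were seen, the CHR counts were 18 of 29 and 0 of 8. These matches describe the letters in the windows, and whether any protein bound them was not measured.

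The windows below, from 150 bases before to 50 after the start and read along the gene's strand, show members with a CHR form near the start and, last, the pair with the smallest changes, MAD1L1 and PMF1. They were picked as examples, and other members run against the contrast they make. The 17 members with no CHR form in the whole window included CENPU, AURKB, CENPI, SPC24 and CENPE (log2 fold changes 2.12, 2.06, 1.86, 1.78 and 1.73). ZW10 (0.52) held a CHR form. CHR forms (also as TTCAAA) and CCAAT (also as ATTGG) are in capitals. ZWINT lies on the minus strand at chr10:56361210-56361409 (1 of 2 listed starts), CDCA8 on the plus strand at chr1:37692366-37692565, CENPA on the plus strand at chr2:26785906-26786105, SGOL1 on the minus strand at chr3:20186157-20186356, NUF2 on the plus strand at chr1:163321804-163322003, MAD1L1 on the minus strand at chr7:2232896-2233095 and PMF1 on the plus strand at chr1:156212857-156213056. The CHR form begins at base -31 in ZWINT, -23 in CDCA8, where it runs into an ATTGG, -18 in CENPA, -3 in SGOL1 and 17 in NUF2, counted from 1 at the start.
ZWINT: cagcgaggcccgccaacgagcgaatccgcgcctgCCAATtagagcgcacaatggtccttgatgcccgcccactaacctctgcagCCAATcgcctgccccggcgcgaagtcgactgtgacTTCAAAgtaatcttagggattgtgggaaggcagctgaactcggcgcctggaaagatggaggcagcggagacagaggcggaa
CDCA8: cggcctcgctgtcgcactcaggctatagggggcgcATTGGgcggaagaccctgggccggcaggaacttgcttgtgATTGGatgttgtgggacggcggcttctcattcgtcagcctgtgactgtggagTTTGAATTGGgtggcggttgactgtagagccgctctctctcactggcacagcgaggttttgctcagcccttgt
CENPA: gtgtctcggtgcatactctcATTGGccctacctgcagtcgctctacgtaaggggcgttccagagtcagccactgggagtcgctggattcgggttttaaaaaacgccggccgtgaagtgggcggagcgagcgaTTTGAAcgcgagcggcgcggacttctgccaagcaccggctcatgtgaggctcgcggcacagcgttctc
SGOL1: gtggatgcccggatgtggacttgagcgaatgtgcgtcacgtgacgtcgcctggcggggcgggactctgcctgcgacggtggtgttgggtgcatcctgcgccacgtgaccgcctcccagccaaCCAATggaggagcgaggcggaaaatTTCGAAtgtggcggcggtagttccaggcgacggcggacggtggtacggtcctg
NUF2: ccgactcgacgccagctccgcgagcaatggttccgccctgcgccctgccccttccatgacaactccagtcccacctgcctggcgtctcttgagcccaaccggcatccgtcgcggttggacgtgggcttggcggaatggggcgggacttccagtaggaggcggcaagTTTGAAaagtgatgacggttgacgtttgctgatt
MAD1L1: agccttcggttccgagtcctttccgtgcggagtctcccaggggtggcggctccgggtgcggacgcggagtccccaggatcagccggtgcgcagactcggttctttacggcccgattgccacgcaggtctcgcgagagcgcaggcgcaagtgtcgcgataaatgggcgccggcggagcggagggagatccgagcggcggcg
PMF1: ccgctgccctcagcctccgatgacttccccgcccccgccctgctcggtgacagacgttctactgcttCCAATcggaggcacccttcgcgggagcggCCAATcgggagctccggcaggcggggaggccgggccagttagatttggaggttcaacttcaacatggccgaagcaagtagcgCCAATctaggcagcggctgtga

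The genes of those promoter-binding factors differed among themselves. Of 20 tested, 13 rose and 1 fell in the values as deposited, again beside 34.9% and 20.5% of all genes tested. After either scaling the counts were 10 and 3, beside 27.2% and 27.0% of all genes that were then higher. Of all 12729 genes tested, 3470 (median ratios) and 3559 (quantile normalization) were then lower. E2F1 (10.8 ± 0.733 FPKM with 8OH-G miR-483 and 1.99 ± 0.121 FPKM with miR-483), MYBL2, which encodes B-MYB (25.3 ± 1.99 and 4.89 ± 0.608 FPKM), the MuvB subunit gene LIN9 (2.99 ± 0.186 and 0.961 ± 0.0334 FPKM) and FOXM1 (42.5 ± 4.70 and 16.6 ± 1.95 FPKM) had the smallest p. LIN9 too reached 1 FPKM in the 8OH-G miR-483 libraries alone, and its p is no support. RBL2, which encodes the p130 pocket protein of DREAM, fell to 12.6 ± 0.344 FPKM with 8OH-G miR-483, against 16.2 ± 0.315 FPKM with miR-483 (adjusted p = 0.00165). Other genes of the list, named here after their values were seen, did not fall with it. The pocket protein gene RBL1 (3.78 ± 0.605 and 1.13 ± 0.206 FPKM) and E2F4 (43.4 ± 0.383 and 31.1 ± 1.44 FPKM) rose. RBL1 met the filter only with its 8OH-G miR-483 libraries counted, so its p is no support. LIN37, NFYB and NFYC did not pass the test. E2F2, the 1 untested gene of the list, was at 0.846, 0.895 and 1.01 FPKM with 8OH-G miR-483 and at 0.0619, 0.109 and 0.0740 FPKM with miR-483.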

How the data were processed

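RNA sequencing values of 6 HUVEC libraries (3 per group) were used. Per the submitters' processing notes, cutadapt, STAR, HTSeq, DESeq2 and the build hg19 were used, with no versions, parameters or order stated in the sources used here. The authors deposited 1 column of decimal values per library over 20792 rows, taken as FPKM because the totals exceed what CPM or TPM can reach, though neither labels nor file headers name the unit. A search for whole reads behind the low values of 2 library pairs (tolerance 0.05 log2) placed 46.5% and 46.0% of them at best, against a median of 43.5% and 42.1% over the offsets searched, and reads were not recovered.

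For 748 names on several rows the highest value per library was kept, giving 18336 names. The 12729 names that reached 1 FPKM in 3 or more libraries were fitted as log2(FPKM + 1) in limma 3.58.1 (R 4.3.3; trend and robust shrinkage, no covariate). The p-values were adjusted by Benjamini-Hochberg over all of them with a threshold of 0.05. The script was tested on simulated data. Fold changes are given as 8OH-G over miR-483, and N-fold values are ratios of mean FPKM.

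The 46 genes, the lists and the partner pairs were chosen with earlier results of these data known. Values per library are given for the extremes of each role and for any gene not called, with further members described by role. From each list, the 4 genes with the smallest p and all lower genes are named. Matches to the microRNA seed were not analysed here. Same-numbered libraries were not treated as pairs. Alternatives covered the pseudocount, filters, repeated names, scaling, a replicate block, variance shrinkage, a fold threshold and each library left out.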

Additional observations from a re-analysis of the deposited data

How the results depend on the processing

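The count of 45 higher and 0 lower genes among the 46 stayed at 43 to 46 higher and 0 lower under every alternative listed in the processing account, the 43 arising where SPC25 and SKA1 were left out as repeated names and where a fold of 1.2 was put into the test (NSL1 and MAD1L1 not called, adjusted p = 0.166 and 0.753). Their median log2 fold change of 1.62 became 2.04 with a pseudocount of 0.1, 1.83 with 0.5 and 1.51 after quantile normalization, and ran from 1.55 to 1.69 with 1 library left out. Over all genes, the fold of 1.2 left 2259 higher (17.7%) and 1182 lower genes (4437 and 2608 in the test against no change), against 3910 to 4247 and 2195 to 2496 with 1 library left out. In the lists, that fold threshold left 0 of the 4 lower further kinetochore genes, 4 higher and 0 lower cohesin genes, and 8 higher and 0 lower promoter-binding factors. Lower genes numbered 2 for the anaphase promoting complex after either scaling and 1 with a replicate block, 2 for cohesin after quantile normalization, and 3 for the promoter-binding factors after either scaling. Over all genes, 3470 were lower after median-ratio scaling, 3559 after quantile normalization and 2799 with the block. Deviations from the group means correlated at 0.017, 0.332 and 0.012 across genes between same-numbered libraries. Between libraries of different number the correlations ran from -0.239 to 0.22. These values do not settle whether same-numbered libraries belong together. With the block, 45 of the 46 genes were again higher, and 4802 genes were higher and 2799 lower overall. Of the 20 partner ratios, 13 moved beyond their spread with a pseudocount of 0.1. Read depth is unknown, so how far it limits genes near 1 FPKM, such as SGOL1, SKA1 and CENPP with miR-483, could not be measured.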
